A study of Solanum virginianum with 24 samples.

Results

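Among the transcripts measured in eggplant fruit, a group stood above its flowering-day level a few days after pollination and well below it in fruit of 50 days. The group was chosen by those very measurements. A probe set was a member when its mean at 5 days post anthesis (dpa) was at least 0.7 above the 0 dpa mean on the log2 scale and its mean at 50 dpa was at least 0.7 below it. The rule found 112 of 10101 probe sets, which is 20.8% of the 539 that met the first condition and 14.4% of the 778 that met the second. Of the 112, 17 carry a gene symbol, 13 of them a proper name and 4 only a LOC number, and 95 have no symbol in the platform's annotation.

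Fruits of cultivar PPL came from glasshouse plants whose flowers were pollinated by hand, and were harvested at 0, 5, 10, 20 and 50 dpa, with 3 arrays per age that the labels call biological replicates. No genotype, mutant or treatment was compared, and the only factor was age. The series title names Solanum melongena, whereas the sample records give Solanum virginianum. RNA was hybridised to the Affymetrix tomato GeneChip, so eggplant RNA was read through probes designed for tomato, and all symbols and accessions are those of tomato. The deposited values are log2 values that were centred for each probe set, so they hold differences between ages and no level of expression. Each age had been normalised together with the same 3 arrays of 0 dpa. Every value below is therefore an array, or a mean of 3 arrays, minus the mean of the 0 dpa arrays in its own set. In RNA of bulk fruit, fewer cells of a type and less RNA per cell cannot be told apart.

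After pollination an ovary turns into a fruit by a period of cell division, followed by a longer period in which cells enlarge and finally by ripening. Cyclins bind cyclin-dependent kinases and carry a cell through its cycle: D-type cyclins act at entry, A-type cyclins in DNA synthesis and later, and B-type kinases of plants at mitosis. Aux/IAA proteins repress auxin responses and are removed when auxin is present, and auxin is known as a signal of fruit set. Endoglucanases and other wall enzymes loosen or rebuild walls while cells grow.

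The values used by the rule are given as a description only. At 5 dpa the members lay between 0.71 and 3.27 above 0 dpa with a median of 1.05, and 15 of them were at least 2 log2 units above. At 50 dpa they lay between -4.45 and -0.72 with a median of -1.36, and 34 were at least 2 log2 units below. The 3 arrays of 5 dpa did not overlap those of 0 dpa for 111 of the 112 (22.4% of all probe sets had 5 dpa arrays above all 0 dpa arrays). At 50 dpa all 112 had arrays below those of 0 dpa (24.4% of all probe sets). The median standard deviation (SD) over the 3 arrays of 5 dpa was 0.130 for the members and 0.123 for all probe sets, and at 50 dpa it was 0.163 and 0.117. Just inside the rule stood LesAffx.69999.1.S1_at at 5 dpa (0.71) and LesAffx.67669.1.S1_at at 50 dpa (-0.72). Just outside stood LesAffx.60530.1.S1_at at 5 dpa (0.698) and hqt, a gene of chlorogenic acid synthesis, at 50 dpa (-0.695, after 1.10 at 5 dpa).

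**Figure D1:**
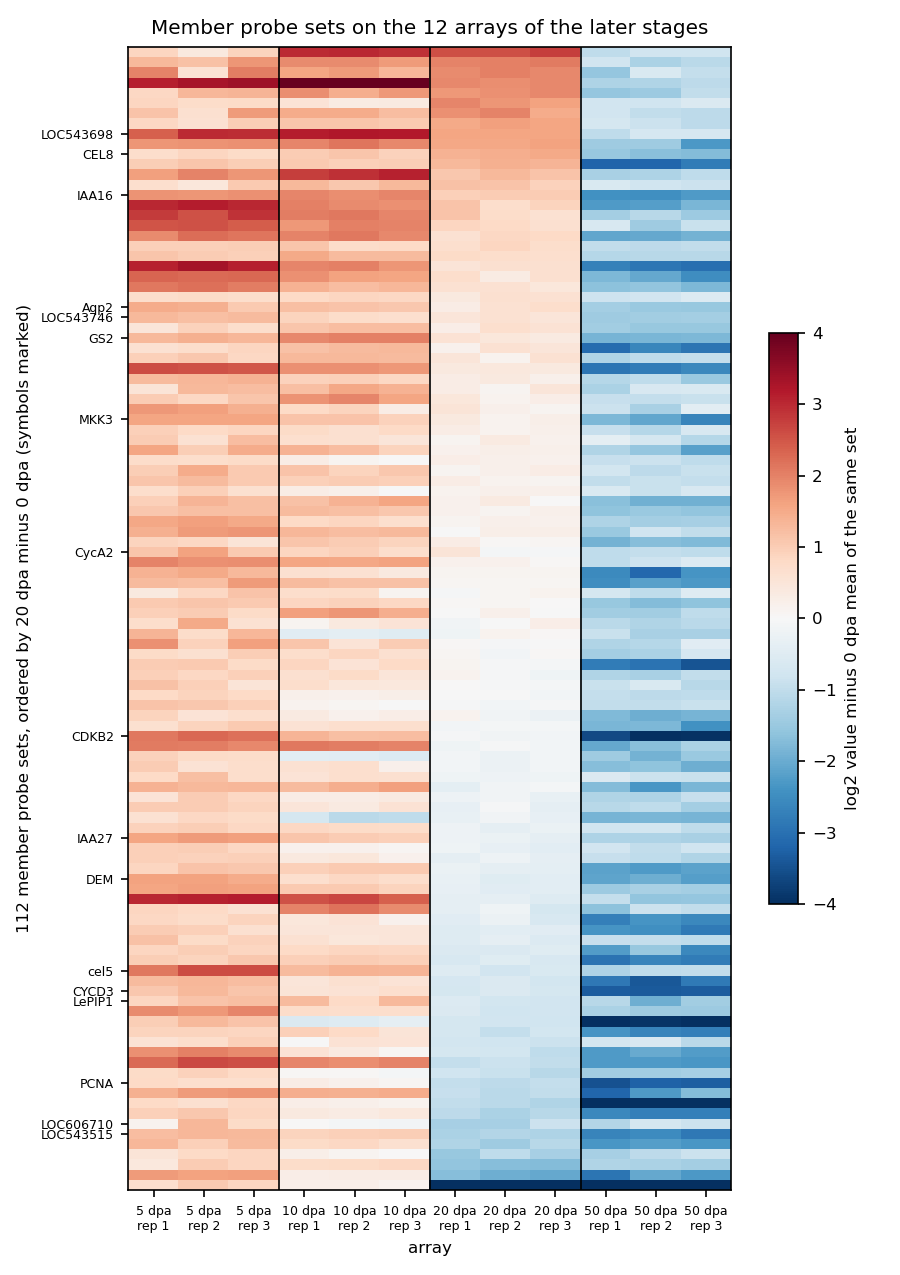
Each row is 1 of the 112 member probe sets and each column 1 of the 12 arrays of 5, 10, 20 and 50 dpa; colour is the log2 value minus the 0 dpa mean of the same set, limited to 4 in either direction, and rows are ordered by the mean at 20 dpa. The 5 dpa columns are red and the 50 dpa columns blue by the choice of the members, most of the 10 dpa columns are red, and the 20 dpa columns run from red to blue.

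The arrays of 10 and 20 dpa were not used by the rule, although the 0 dpa arrays they are compared with are the same 3 that it used. At 10 dpa most members remained above 0 dpa. In limma with Benjamini-Hochberg adjustment over all 10101 probe sets and a threshold of 0.05, 91 of the 112 were higher, against 15.9% of all probe sets, and 51 of these were at least 2-fold higher, against 3.48% of all probe sets. The members' median was 0.89, with a range from -0.94 to 4.11, against -0.025 for all probe sets. At 10 dpa 4 members were lower (19.4% of all probe sets), each by less than 2-fold (at least 2-fold in 1.9% of all), and 17 did not pass the test in either direction. The 4, named after their values were seen, have no symbol. LesAffx.51158.2.S1_at was at -0.94 ± 0.11 (standard error, SE, here and after every later ±), Les.513.1.S1_at at -0.48 ± 0.085, Les.3319.2.S1_at at -0.47 ± 0.095 and Les.3320.2.S1_at at -0.44 ± 0.086.

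By 20 dpa the group lay on both sides of 0 dpa. Of its members 32 were above 0 dpa (17.8% of all probe sets) and 35 below (20.1% of all probe sets), and 45 passed in neither direction. The median was 0.046, against -0.022 for all probe sets, and the interquartile range ran from -0.41 to 0.47 for the members and from -0.23 to 0.20 for all. Of the members 14 were called and at least 2-fold higher at 20 dpa (3.22% of all probe sets) and 9 at least 2-fold lower (2.18%). The 32 that were higher included CEL8, IAA16, GS2, Aqp2, LOC543698 and LOC543746. The 35 that were lower included PCNA, CYCD3, cel5, LePIP1, DEM, IAA27, LOC543515 and LOC606710.

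**Figure D2:**
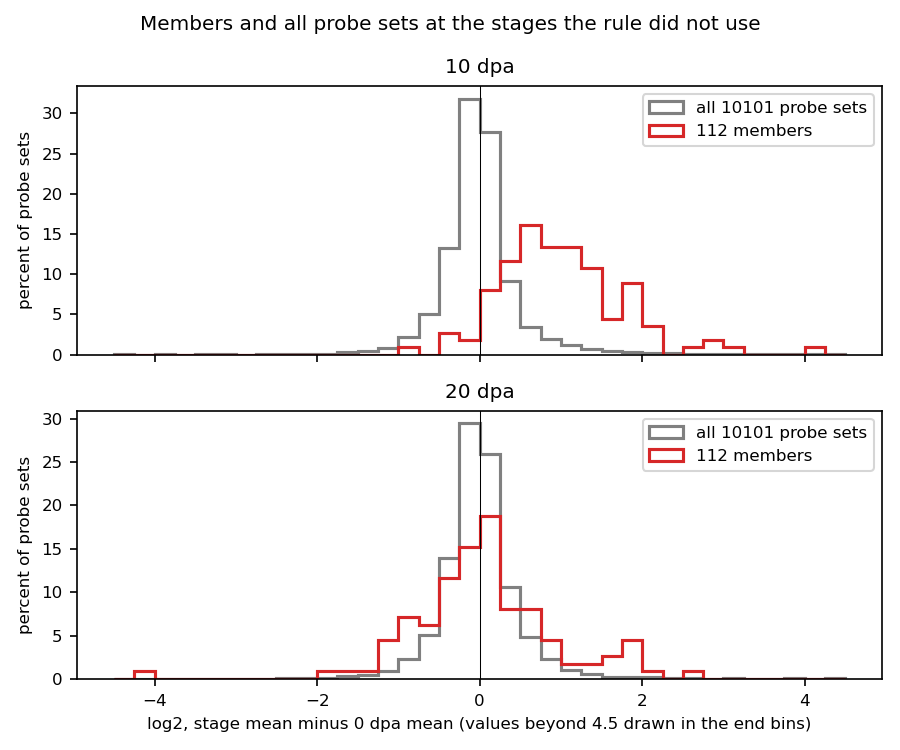
Histograms of the log2 difference from 0 dpa at 10 dpa (upper) and 20 dpa (lower), in percent of probe sets, for the 112 members (red) and all 10101 probe sets (grey). At 10 dpa the members lie mostly to the right, with a median of 0.89, and at 20 dpa they spread to both sides around 0.046.

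Between 10 and 20 dpa the members went down. These stages were normalised in separate sets, so the step is described and not tested. The 3 arrays of 20 dpa, each as its distance from the 0 dpa mean it was normalised with, lay below all 3 arrays of 10 dpa for 94 of the 112 members, against 24.7% of all probe sets. They lay above them for 9 members (23.5% of all probe sets), and the arrays of the other 9 overlapped. For 32 members all arrays lay above those of 0 dpa at 10 dpa and below them at 20 dpa, as for 2.74% of all probe sets. The stages of the peak, the widest drop and the lowest mean are description only, since they use the 5 and 50 dpa values that chose the members. By the rule no member could peak at 50 dpa or be lowest at 5 dpa, and the steps cover unequal numbers of days. The highest mean fell at 5 dpa for 80 members, at 10 dpa for 24 and at 20 dpa for 8. The widest drop between neighbouring stages was that from 20 to 50 dpa for 82 members, from 10 to 20 dpa for 25 and from 5 to 10 dpa for 5. For 109 members the lowest mean was that of 50 dpa. The other 3, named after their values were seen, were lowest at 20 dpa: Les.2316.1.S1_at (-1.68 at 20 dpa and -1.28 at 50 dpa), LesAffx.63154.1.S1_at (-1.29 and -1.08) and LOC606710 (-1.17 and -0.90).

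Other probe sets that rose at 5 dpa give a scale for these numbers. There were 128 with differences of at least 0.7 both at 5 and at 50 dpa, and 299 with a rise at 5 dpa and a difference within 0.7 of zero at 50 dpa. At 10 dpa 113 of the 128 and 231 of the 299 were called higher, with medians of 1.55 and 0.74. At 20 dpa 122 and 193 were called higher and 1 and 11 lower, with medians of 1.52 and 0.47. Their 20 dpa arrays lay below those of 10 dpa for 61 and 154. The mirror image, a fall of at least 0.7 at 5 dpa and a rise of at least 0.7 at 50 dpa, held 66 probe sets, of which 38 were higher and 12 lower at 20 dpa. The difference between these groups and the members was not tested.

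Cell cycle genes were the largest set among the named members. CDKB2, a B-type cyclin-dependent kinase of mitosis, was at 2.104, 2.294 and 2.194 on the 5 dpa arrays, and its 0 dpa arrays spanned -0.037 to 0.052. At 10 dpa its arrays were at 1.37, 1.21 and 1.24, all above 0 dpa, a rise of 2.41-fold (log2 1.27 ± 0.081, limma adjusted p = 5.33e-06). At 20 dpa the arrays were at -0.045, -0.14 and -0.10, just under those of 0 dpa, and the difference did not pass (log2 -0.096 ± 0.074, adjusted p = 0.345). At 50 dpa CDKB2 stood at -3.61, -4.21 and -3.94, a mean 15.1-fold below 0 dpa, and its distance between 5 and 50 dpa (6.12) was the widest of all 112 members.

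CYCD3, a D-type cyclin, was at 1.06, 1.31 and 1.12 at 5 dpa and at 0.51, 0.57 and 0.69 at 10 dpa (log2 0.59 ± 0.082, adjusted p = 0.000637). At 20 dpa its arrays had gone below all 0 dpa arrays, at -0.70, -0.58 and -0.71 (log2 -0.66 ± 0.076, adjusted p = 0.00024), and at 50 dpa they were at -3.34, -3.36 and -3.33. The groups of 3 arrays did not overlap between any of these stages. PCNA, the sliding clamp of DNA replication, had lower values at 5 dpa, with 0.80, 0.69 and 0.66, and at 10 dpa, with 0.31, 0.17 and 0.075 (log2 0.19 ± 0.087, adjusted p = 0.137). It was below 0 dpa at 20 dpa, with arrays at -0.95, -1.04 and -0.94 (log2 -0.98 ± 0.077, adjusted p = 2.59e-05), and at 50 dpa, with -3.50, -3.24 and -3.30. With a 5 dpa mean of 0.72, PCNA met the rule narrowly and did not meet it without 5 dpa replicate 1.

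CycA2 is an A-type cyclin, and its arrays were spread more widely at 5 and 20 dpa than at 50 dpa. It was at 1.11, 1.62 and 1.04 at 5 dpa, where its 0 dpa arrays already spanned -0.59 to 0.36. At 10 dpa its arrays were at 0.84, 0.96 and 0.71 (log2 0.84 ± 0.18, adjusted p = 0.00672), and the unpaired t-test named in the series' methods gave an adjusted p of 0.0838. At 20 dpa they were at 0.52, -0.083 and -0.036 and overlapped 0 dpa (log2 0.13 ± 0.16, adjusted p = 0.566), and at 50 dpa they were at -1.02, -0.95 and -1.03.

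Of 11 cell cycle and DNA replication genes measured, these 4 were the members. In limma 4 of the list passed at 10 dpa, all of them higher, and 1 of the 4 was not a member, CycA1 (log2 0.48 ± 0.14, adjusted p = 0.0228). At 20 dpa 4 passed, all of them lower. Those outside the rule were CDKB1, another B-type kinase (-0.62 ± 0.084, adjusted p = 0.000634), and krp2, a gene for an inhibitor of these kinases (-0.36 ± 0.075, adjusted p = 0.00536). The list's medians at 5, 10, 20 and 50 dpa were 0.28, 0.12, -0.085 and -0.42. The genes furthest below 0 dpa at 10 dpa were krp1, also a kinase inhibitor gene (-0.13, adjusted p = 0.431), and CDKB1 (-0.054, adjusted p = 0.642), and neither passed. CycB2, CycA3 and CDKA1 stayed between -0.085 and 0.14 at 5, 10 and 20 dpa. At 50 dpa CycB2 was at -0.065 and CDKA1 at -0.036, whereas CycA3 was above 0 dpa at 0.58.

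**Figure D3:**
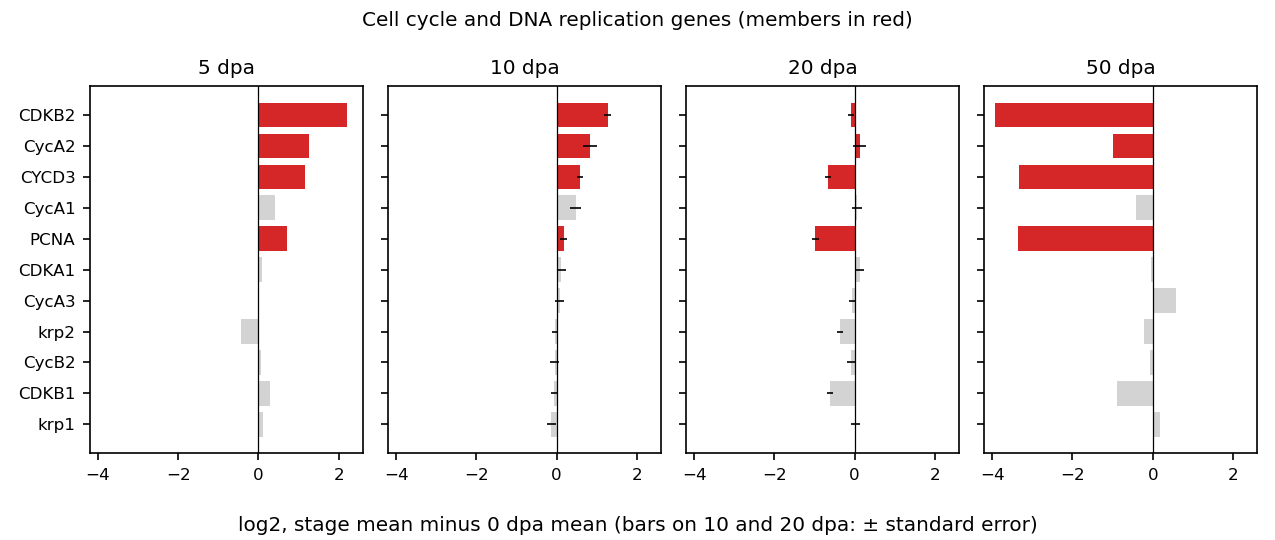
Log2 difference from 0 dpa at each stage for the 11 cell cycle and DNA replication genes, ordered by the value at 10 dpa, with members in red and standard errors at 10 and 20 dpa. CDKB2, CYCD3 and PCNA reach -3.92, -3.34 and -3.35 at 50 dpa, while CDKB1, which is outside the rule, is at -0.89.

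Both auxin members encode Aux/IAA repressors, and they differed in how long they stayed high. IAA16 was at 1.79, 1.75 and 1.83 at 5 dpa, at 1.94, 1.86 and 1.94 at 10 dpa (log2 1.91 ± 0.080, adjusted p = 4.25e-07) and at 0.95, 1.03 and 1.01 at 20 dpa (log2 1.00 ± 0.074, adjusted p = 1.86e-05). Only at 50 dpa were its arrays below 0 dpa, at -2.41, -2.47 and -2.27. IAA27 was at 1.58, 1.71 and 1.64 at 5 dpa and at 1.12, 1.01 and 0.96 at 10 dpa (log2 1.03 ± 0.078, adjusted p = 1.57e-05). At 20 dpa its arrays were at -0.20, -0.27 and -0.36, all under those of 0 dpa (log2 -0.28 ± 0.086, adjusted p = 0.0339). That call ended in the methods' t-test and without any of 5 single arrays (adjusted p from 0.0538 to 0.110). At 50 dpa IAA27 was at -1.25, -1.25 and -1.28.

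A further probe set of each of these genes, with A1 in its ID where the member has S1, gave other values. Whether both types read the same transcript was not tested. The second IAA16 probe set was at 1.55, 0.98, 1.25 and -0.46 at the 4 stages, and the second IAA27 probe set at 0.92, 0.083, 0.39 and 0.015, so neither met the 50 dpa condition. Among the 14 probe sets of 7 auxin genes, 6 were higher and 1 lower at 10 dpa and 5 were higher and 2 lower at 20 dpa. Largest at 10 dpa after IAA16 was a probe set of IAA17 with A1 in its ID (1.08 ± 0.17, adjusted p = 0.00125), which stayed up at 50 dpa (0.82). The other IAA17 probe set was at 0.61 at 10 dpa and 0.97 at 50 dpa. The single fall at 10 dpa was a probe set of IAA7 (-0.47 ± 0.085, adjusted p = 0.0026), with -2.10 at 50 dpa. The other IAA7 probe set, with A1 in its ID, was at 0.092 at 10 dpa (adjusted p = 0.527) and 0.49 at 50 dpa. The next lowest at 10 dpa was ARF3, an auxin response factor gene (-0.068, adjusted p = 0.629).

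**Figure D4:**
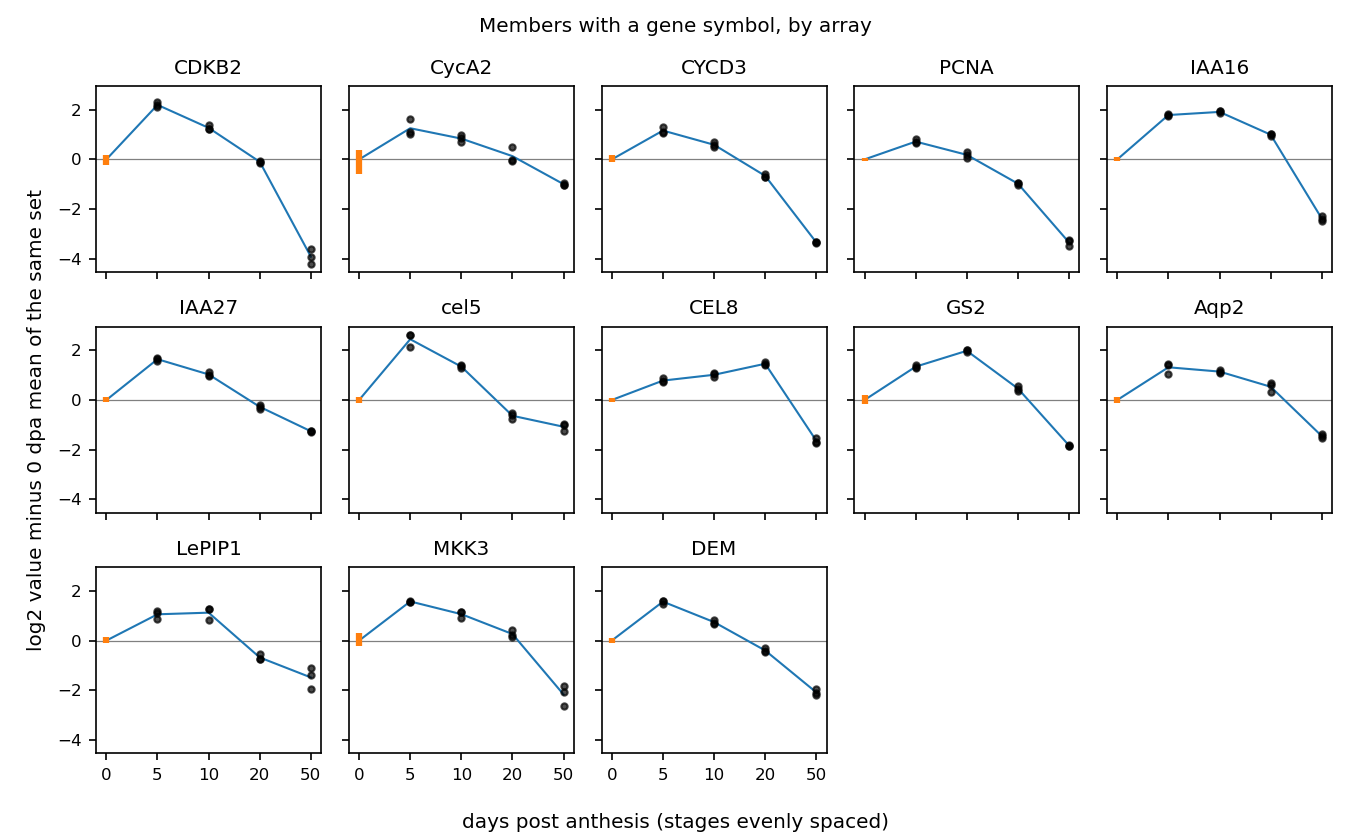
Each panel shows a member with a proper gene name, as log2 value minus the 0 dpa mean of its set against age; points are the 3 arrays of a stage, the line joins stage means, and the orange bar spans the 0 dpa arrays over the 4 sets. Most panels peak at 5 dpa, those of IAA16, GS2 and LePIP1 at 10 dpa and that of CEL8 at 20 dpa.

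The 2 wall members are endoglucanase genes that moved apart after 10 dpa. The arrays of cel5 were at 2.12, 2.61 and 2.62 at 5 dpa and at 1.28, 1.39 and 1.36 at 10 dpa (log2 1.34 ± 0.089, adjusted p = 6.72e-06). At 20 dpa they were at -0.53, -0.77 and -0.61, below every 0 dpa array (log2 -0.64 ± 0.089, adjusted p = 0.000699), and at 50 dpa at -1.249, -1.004 and -0.985. CEL8 was at 0.71, 0.87 and 0.76 at 5 dpa, at 1.03, 1.10 and 0.92 at 10 dpa (log2 1.02 ± 0.080, adjusted p = 2.05e-05) and at 1.39, 1.46 and 1.53 at 20 dpa (log2 1.46 ± 0.077, adjusted p = 2.48e-06). Its 3 arrays of 50 dpa stood at -1.52, -1.69 and -1.72. CEL8 was among the 9 members whose 20 dpa arrays all lay above those of 10 dpa.

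Of 43 probe sets of 41 wall genes, 14 were higher and 6 lower at 10 dpa, and 16 were higher and 7 lower at 20 dpa, with medians of 0.12 and 0.16. The widest rises at 10 dpa were those of XTH3, a xyloglucan endotransglucosylase gene (2.00 ± 0.16), and MAN2, a mannanase gene (1.91 ± 0.34), which were at 1.09 and 0.031 at 50 dpa. The deepest falls were those of Cel1, a further endoglucanase gene (-2.68 ± 0.085), and XTH1 (-2.11 ± 0.076), both of which were already at -0.94 and -1.14 at 5 dpa. A pair of XTH16 probe sets came within 0.1 of the rule, with 0.60 and 0.67 at 5 dpa and -1.66 and -2.22 at 50 dpa, whereas the third was at 0.017 and -0.28.

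GS2, the plastid glutamine synthetase of ammonium assimilation, was at 1.30, 1.41 and 1.31 at 5 dpa and peaked at 10 dpa with 1.93, 2.01 and 2.00 (log2 1.98 ± 0.105, adjusted p = 1.73e-06). At 20 dpa it was at 0.57, 0.45 and 0.37 (log2 0.46 ± 0.11, adjusted p = 0.0121, and 0.0685 in the methods' t-test), and at 50 dpa at -1.87, -1.84 and -1.80. Photosynthesis and chlorophyll genes contained no member: 8 of 10 were at least 0.7 above 0 dpa at 5 dpa and 0 were at least 0.7 below at 50 dpa. Aqp2, an aquaporin gene, was at 1.47, 1.43 and 1.06 at 5 dpa and at 1.21, 1.15 and 1.08 at 10 dpa (log2 1.14 ± 0.078, adjusted p = 7.99e-06). It was at 0.31, 0.60 and 0.69 at 20 dpa (log2 0.53 ± 0.12, adjusted p = 0.00676, and 0.0539 in the methods' t-test) and at -1.37, -1.47 and -1.52 at 50 dpa.

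MKK3, a mitogen-activated protein kinase kinase gene, was at 1.59, 1.57 and 1.57 at 5 dpa and at 1.14, 1.13 and 0.92 at 10 dpa (log2 1.06 ± 0.11, adjusted p = 0.000104). At 20 dpa it was at 0.41, 0.15 and 0.23 (log2 0.26 ± 0.11, adjusted p = 0.0943), and at 50 dpa at -1.81, -2.09 and -2.63. DEM, which tomato needs to form its shoot meristem, was at 1.61, 1.60 and 1.49 at 5 dpa and at 0.69, 0.84 and 0.71 at 10 dpa (log2 0.74 ± 0.082, adjusted p = 0.000163). Its 20 dpa arrays had crossed below 0 dpa, at -0.31, -0.48 and -0.42 (log2 -0.40 ± 0.085, adjusted p = 0.00595), and its 50 dpa arrays were at -2.12, -1.95 and -2.19. LePIP1 was at 0.86, 1.13 and 1.19 at 5 dpa and at 1.27, 0.81 and 1.29 at 10 dpa (log2 1.12 ± 0.14, adjusted p = 0.000288). It was at -0.56, -0.73 and -0.76 at 20 dpa (log2 -0.68 ± 0.087, adjusted p = 0.000417), and its 50 dpa arrays, at -1.11, -1.96 and -1.39, were among the most spread of the named members.

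The 4 members known by a LOC number alone had unlike courses. LOC543698 (accession AF403444) had the highest mean of the members with a symbol, with 2.39, 2.98 and 2.94 at 5 dpa and 3.13, 3.20 and 3.18 at 10 dpa (log2 3.17 ± 0.079, adjusted p = 2.08e-08). It was at 1.58, 1.58 and 1.59 at 20 dpa (log2 1.58 ± 0.15, adjusted p = 7.94e-05), and at -1.02, -0.67 and -0.69 at 50 dpa, where it met the rule only with replicate 1. LOC543515 (BG627309) had the widest step between 10 and 20 dpa among the members with a symbol, from 0.89, 0.94 and 0.99 (log2 0.94 ± 0.085, adjusted p = 4.66e-05) to -1.25, -1.16 and -1.22 (log2 -1.21 ± 0.080, adjusted p = 1e-05). It was at 1.22, 1.33 and 1.31 at 5 dpa and at -2.65, -2.53 and -2.85 at 50 dpa.

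LOC543746 (AJ243454) declined slowly, from 1.30, 1.19 and 1.28 at 5 dpa to 0.90, 0.75 and 0.67 at 10 dpa (log2 0.77 ± 0.092, adjusted p = 0.00025) and 0.48, 0.62 and 0.48 at 20 dpa (log2 0.53 ± 0.081, adjusted p = 0.00117). At 50 dpa it was at -1.41, -1.38 and -1.35. LOC606710 (AJ635323) was the member whose 5 dpa arrays, at 0.15, 1.33 and 0.78, overlapped those of 0 dpa. It missed the rule when any of 3 single arrays was left out: replicate 2 or 3 of 0 dpa, or replicate 2 of 5 dpa. Its 10 dpa arrays were at 0.030, -0.086 and -0.10 (log2 -0.053 ± 0.087, adjusted p = 0.697), its 20 dpa arrays at -1.34, -1.32 and -0.85 (log2 -1.17 ± 0.15, adjusted p = 0.000471) and its 50 dpa arrays at -1.16, -0.69 and -0.85. The 3 other probe sets of that symbol lay between 0.013 and 0.17 at 5 dpa. Of these, 1 was lower at 20 dpa as the member was (-0.72, adjusted p = 0.00199) and at -1.13 at 50 dpa, another was at -0.31 (adjusted p = 0.0331) and -0.12, and the last at 0.14 (adjusted p = 0.245) and -0.071.

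Members without a symbol held the widest changes after CDKB2. Further probe sets outside the rule share an ID stem with some of those named here, and their values at 5 and 50 dpa are given below. Les.687.2.S1_at was at 3.09, 3.33 and 3.11 at 5 dpa, at 1.96, 2.00 and 1.75 at 10 dpa (log2 1.90 ± 0.092, adjusted p = 9.74e-07), at 0.51, 0.64 and 0.64 at 20 dpa (log2 0.60 ± 0.076, adjusted p = 0.000433) and at -2.69, -2.88 and -3.02 at 50 dpa. LesAffx.19390.1.S1_at and LesAffx.4297.1.S1_at had like courses: means of 2.54 and 3.06 at 5 dpa, 1.79 and 1.91 at 10 dpa, 0.40 and 0.92 at 20 dpa, all called at the last 2 stages, and -2.76 and -2.10 at 50 dpa. Each of these 3 moved down at every step.

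In the next 3 the fall outweighed the rise. Les.4539.1.S1_a_at had means of 0.76 at 5 dpa, 0.20 ± 0.081 at 10 dpa (adjusted p = 0.0844), -1.09 ± 0.085 at 20 dpa (adjusted p = 2.55e-05) and -4.45 at 50 dpa, the deepest 50 dpa value of the group, 21.8-fold below 0 dpa. Les.513.1.S1_at, with 1.15 at 5 dpa, was already lower at 10 dpa as given above, and went on to -0.75 ± 0.085 at 20 dpa (adjusted p = 0.000214) and -4.03 at 50 dpa. Les.2474.1.S1_at dropped in a single step. Its arrays were at 0.67, 1.04 and 0.87 at 5 dpa, at 0.22, 0.24 and 0.15 at 10 dpa (log2 0.20 ± 0.073, adjusted p = 0.0619), at -4.01, -4.31 and -4.02 at 20 dpa (log2 -4.11 ± 0.11, adjusted p = 4.38e-08) and at -4.69, -4.01 and -4.24 at 50 dpa.

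Some members share the stem of their ID, and whether such probe sets read the same transcript was not tested. By the part of the ID before the second point, 8 members shared a stem in 4 pairs, and each of the others had a stem of its own. The pair LesAffx.66226.1.S1_at and LesAffx.66226.2.S1_at was at 2.50 and 1.63 at 5 dpa, 1.93 and 1.45 at 10 dpa, -0.93 and -0.99 at 20 dpa, and -2.30 and -2.40 at 50 dpa. The 3 other pairs differed by 0.068 to 0.81 at 5 dpa and by 0.28 to 1.39 at 50 dpa. For 34 stems the array holds 48 further probe sets outside the rule, of which 8 were at least 0.7 above 0 dpa at 5 dpa and 10 at least 0.7 below it at 50 dpa, with medians of 0.23 and -0.26. Of these 48, 25 have A1 in their ID, as do 5 of the 112 members and 2374 of all probe sets. The suffix _s_at is carried by 2 members and the suffix _a_at by 2, and both mark probes shared by several transcripts. IAA27, CEL8 and Les.4539.1.S1_a_at are among these 4. Both suffixes are rare among all probe sets too, so the low counts do not set the members apart.

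Other measures moved with the stages as well, and their part in the results was not tested. The array of 5 dpa replicate 2 lay more than 1 log2 unit below both other arrays for 50 probe sets, 1 of them a member, Les.3330.1.S1_at. Chosen without that array, the group held 110 probe sets, 103 of them the same. The counts in that group, which were added after seeing the data, were 91 higher and 3 lower at 10 dpa and 33 higher and 34 lower at 20 dpa. Against 0 dpa, the 5' minus 3' signal of the actin control was shifted by 1.09, 0.37, 0.52 and 0.39 at 5, 10, 20 and 50 dpa and that of GAPDH by 0.77, 0.69, 0.95 and 0.32. Bacterial labelling spikes were shifted by 1.05 at 5 dpa (arrays from 0.65 to 1.63) and by -0.27, -0.18 and -0.33 later. The 25S ribosomal RNA control was shifted by -0.71, -1.81, 0.0081 and 1.04. None of the 4 pollen and anther markers measured (PRK1, PRK2, PRK3 and LIN7) was a member, and their values at the 4 stages lay between -0.20 and 0.35. Of 2 seed markers, LEA14 rose at 10 dpa (0.45 ± 0.080, adjusted p = 0.00243). It was at 0.067, -0.071 and 0.65 at 5, 20 and 50 dpa. The other, MAN1, lay between -0.038 and 0.15 at the 4 stages and passed at neither 10 nor 20 dpa. The 5 markers of green tissue (PSBP, PsbQ, PSBO, CAB4 and CAB6A) were between 1.36 and 4.14 above 0 dpa at all 4 later stages. The other 5 genes of the photosynthesis and chlorophyll list were less uniform: PETE was at -0.35 at 50 dpa after 1.00, 1.69 and 0.85, DET1 was lower at 10 dpa (-0.38 ± 0.097, adjusted p = 0.0157) with -0.097, -0.14 and 0.13 at 5, 20 and 50 dpa, and CAB5, POR2 and PSBR lay between 0.36 and 2.24. The centred values cannot tell whether any marker was absent.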

How the data were processed

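The deposited log2 values were made by the authors from CEL files with RMA (background correction, quantile normalisation, median polish) in GeneSpring GX 11.5, per the series design text; the submitters' processing notes list RMA too. Per the labels, the 24 columns hold 15 arrays, since those of 0 dpa were normalised once with each of the 4 later stages. The 6 columns of a set had a median of 0 (tolerance 1e-05) in 100% of probe sets, so no level, depth or filter on low signals is available, and the number of arrays limits the precision. Higher values were read as more transcript.

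The 108 control probe sets were left out. Symbols came from the platform annotation of the probe-to-gene table: 909 of 10101 probe sets had 1 symbol and the rest none. Members were chosen by the threshold of 0.7; the rule, the members and the gene lists were chosen with earlier results of these data known. At 10 and 20 dpa, limma 3.58.1 (R 4.3.3; lmFit and eBayes, two-sided) was fitted to the 6 columns of each set across all probe sets, with Benjamini-Hochberg adjustment and a threshold of 0.05; it was tested on simulated data. No test was made at 5 and 50 dpa, which chose the members, or between sets. Replicate numbers were not used as a block, because deviations from the stage means correlated at -0.017 to 0.10 between same-numbered arrays.

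Named were all members with a symbol, the 6 without a symbol with the widest distance between 5 and 50 dpa, those next to the thresholds, and the 2 largest rises and falls at 10 dpa of each list that held a member; others are said to be chosen after their values were seen or are given for a list. Lists without a member covered ethylene, gibberellin with cytokinin and brassinosteroid, lipid and sterol, phenylpropanoid, carotenoid, and sugar genes. Figures were drawn with matplotlib 3.10.9.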

Additional observations from a re-analysis of the deposited data

Results flagged for a closer look

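Of the 23 named members, 10 had all 3 arrays above every 0 dpa array at 10 dpa and all 3 below every 0 dpa array at 20 dpa; over all 112 members there were 32, against 2.74% of all probe sets. The difference between the stages was not tested, since they were normalised in separate sets, and both share the 0 dpa arrays. The 20 dpa mean lay below the 10 dpa mean by a log2 difference of -1.37 for CDKB2, -1.25 for CYCD3, -1.16 for PCNA, -1.14 for DEM and -1.30 for IAA27. The difference was -2.15 for LOC543515, -1.98 for cel5 and -1.81 for LePIP1. Of the members without a symbol, Les.4539.1.S1_a_at had -1.30 and Les.2474.1.S1_at -4.31. CDKB2 at 20 dpa, and PCNA, Les.4539.1.S1_a_at and Les.2474.1.S1_at at 10 dpa, did not pass limma's test against 0 dpa despite arrays that did not overlap.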

How the results depend on the processing

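With thresholds of 0.5 or 1 in place of 0.7 the rule gave 203 or 50 members. When each of its 9 arrays was left out in turn, 88 members, 14 of them with a symbol, met it every time. Of the 94 members whose 20 dpa arrays lay below those of 10 dpa, 72 also met a limit of at least 0.7 on that difference. The share of all probe sets at that limit is not given here. Requiring at least 2-fold left 51 higher and 0 lower members at 10 dpa (limma; no member's mean there was 2-fold lower, so an unadjusted p or the t-test gives 0 too) and 14 higher and 9 lower at 20 dpa. With the replicate block the counts were 92 and 4 at 10 dpa and 32 and 34 at 20 dpa; 1 of 12 same-numbered pairs correlated above 0.1, and 8 of 12 arrays correlated best with their own number. The other alternatives (the methods' t-test, centring of arrays, single arrays left out, the group chosen without 5 dpa replicate 2, which was added after seeing the data) kept each count they were run on within 1.5 times; the t-test was not run on the counts between 10 and 20 dpa. Of 46 values of named members, 39 kept their side of the threshold and their direction throughout. A further 2, neither called in any setting, changed sign: CycA2 at 20 dpa (0.13, and -0.060 to 0.24 with single arrays left out, the lowest without 20 dpa replicate 1) and LOC606710 at 10 dpa (-0.053, and -0.10 to 0.0063, the highest without 0 dpa replicate 2). The other 5 kept their direction: IAA27, GS2 and Aqp2 at 20 dpa and CycA2 at 10 dpa lost the call as given above, and Les.2474.1.S1_at at 10 dpa passed in the t-test and with centred arrays (adjusted p = 0.0166 and 0.0458, range over alternatives 0.0166 to 0.167). The cause was not tested.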
